A study of Saccharomyces cerevisiae with 8 samples.

Results

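Baker's yeast held frozen for 14 days was compared with the same material at 0 days of freezing. The comparison uses 4 of the 8 arrays of the series, the 2 whose titles give 14 days and the 2 whose titles give 0 days. In both groups, compressed commercial baker's yeast (Saccharomyces cerevisiae, for which the labels name no strain, genotype or growth stage) was brought to an OD600 of 30 in fermentation medium lacking sucrose and maltose. The suspension stood at -20 °C for 14 days or for 0 days, and then came to 30 °C in a water bath within 10 min. The 0 day group therefore shares the suspension and the warming step, and the labels do not say how long the cells stood before RNA was taken. Poly(A) RNA, enriched after hot phenol extraction, was read on 1 Affymetrix array per sample. The submitters describe the 2 samples of each time as independent. The other 4 arrays, of 3 and 7 days, entered the fit as a source of the spread and as the comparisons closest to this one.

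Freezing injures yeast through ice crystals, which break membranes, and through the concentrated solution left between them, which dehydrates cells and unfolds proteins. Cells that survive thawing rebuild membranes, refold or degrade damaged proteins with chaperones and the proteasome, and resume metabolism. Yeast that has sugar ferments it and keeps most genes for respiration low, and a set of activators, among them the Hap2/3/4/5 complex, raises these genes when respiration is used.

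Median deposited signals ran from 51.7 to 110.3 over the 8 arrays, and the number of arrays limits the precision. The 14 day arrays correlated at r = 0.927 across genes and the 0 day arrays at r = 0.877, while 0 day replicate 2 correlated better with 3 day replicate 1 (r = 0.935). The signal of the array's control probe sets for ribosomal RNA over the array median was 21.7 and 15.7 at 14 days, against 8.85 and 6.76 at 0 days. The 3′ to 5′ signal ratio of ACT1, a sign of RNA integrity, was 2.23 and 2.01 at 14 days and 1.54 and 2.86 at 0 days. The array's probe sets for poly(A) spike controls averaged 6.24 and 4.89 at 14 days and 4.22 and 4.35 at 0 days. These values, named the spike signal here, are on the log2 scale before normalisation. At 0 days they lay below the median signal of both arrays, and so did that of 14 day replicate 2. Those of both 3 day arrays and 7 day replicate 2 did too. On all these arrays background cannot be told from added controls. The groups overlapped in the ACT1 ratio but not in the ribosomal RNA or the spike signal, and the part of these 2 in the results below was not tested. At each time the arrays with the lower and higher spike signal were put into 2 array sets, with 1 array per time in each. Set 1 holds 0 day replicate 1 and 14 day replicate 2, and set 2 holds 0 day replicate 2 and 14 day replicate 1. The labels name no such sets, which come from this ranking alone, and the spike signals at 0 days differed little. A difference between the sets cannot be told from one between the replicates of each time. In RNA from a whole suspension, a change in the share of cells that still hold a transcript and a change in its amount per cell cannot be told apart.

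After 14 days, transcripts for chaperones and for the TCA cycle and its activator HAP4 were among those that rose. Transcripts for ribonucleotide reductase, lysine synthesis, iron and ammonium uptake, DNA replication and ribosomal proteins were among those that fell. Of 5188 genes tested, 52 rose (1%) and 38 fell (0.732%) at a limma adjusted p under 0.05 (Benjamini-Hochberg over all genes tested), which is 1.73% in all, and such genes are named as called here. The smallest called change was 2.13-fold. The median log2 fold change over all genes was 0.11, with 55.6% of genes above 0. Both 14 day arrays lay above both 0 day arrays for 28% of genes and below them for 22.9%, so arrays that do not overlap are common in this comparison. On unnormalised values 386 genes rose and 17 fell, and with equal array medians 35 rose and 13 fell. An unadjusted p under 0.05 was found for 1151 genes. The calls need both 14 day arrays and the spread borrowed from the other times: limma called 0 genes without 14 day replicate 1 (824 at an unadjusted p under 0.05), 0 without 14 day replicate 2 (730) and 0 with only the 4 arrays of 0 and 14 days in the fit (936). The count was 245 without 0 day replicate 1 and 52 without 0 day replicate 2, and 39, 41, 74 and 52 without 3 day replicates 1 and 2 and 7 day replicates 1 and 2.

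**Figure D1:**
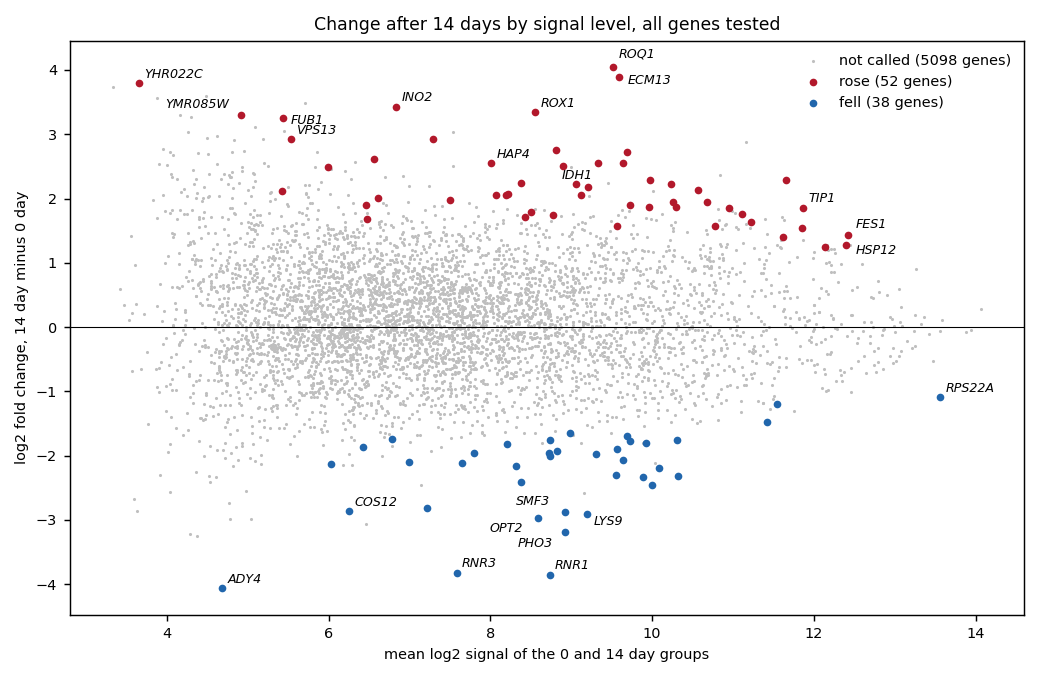
Log2 fold change of 14 against 0 days (vertical axis) against the mean log2 signal of both groups (horizontal axis) for the 5188 genes tested, with the 52 genes that rose in red and the 38 that fell in blue. Calls run from dim to bright genes, and the smallest called change, that of RPS22A, belongs to the brightest called gene.

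The largest rise was that of ROQ1, which encodes a stress-induced regulator that turns the Ubr1 ubiquitin ligase to misfolded proteins. Its normalised signal, given here and below on the linear scale for replicates 1 and 2 in that order, was 246 and 132 on the 0 day arrays and 2118 and 4183 on the 14 day arrays, a 16.5-fold rise (log2 fold change 4.05 ± 0.50 SE with n = 2 arrays per group, limma adjusted p = 0.014). Both 7 day arrays (3637 and 1526) were high too, and both 3 day arrays (312 and 298) were low. ECM13, a gene of unknown function, read 471 and 84.8 on the 0 day arrays and 1990 and 4436 on the 14 day arrays (log2 fold change 3.89, limma adjusted p = 0.0257). The 0 day replicates of ECM13 lay far apart, and its value was 5.16 without 0 day replicate 1, 2.64 without 0 day replicate 2 and 4.50 without 14 day replicate 1. ROX1, the repressor of hypoxic genes, read 173 and 80.5 on the 0 day arrays and 1397 and 1030 on the 14 day arrays (log2 fold change 3.35, limma adjusted p = 0.014). Its 14 day arrays were its 2 highest of the 8, and 0 day replicate 1 carried the higher of the 0 day values, so that the change was 3.94 without it.

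INO2 encodes an activator of phospholipid synthesis and read 25.2 and 47.9 on the 0 day arrays and 219 and 641 on the 14 day arrays (log2 fold change 3.43, limma adjusted p = 0.0415). The 2 values of INO2 at 14 days differed about as much as those at 3 and 7 days, and the change was 4.20 without 14 day replicate 1 and 2.67 without 14 day replicate 2. Several rises started from dim signals: 2.52 and 4.57 at 0 days against 61.6 and 35.8 at 14 days for YHR022C, where 0 day replicate 1 was at the floor of 2.52, and 10.4 and 8.97 against 87.6 and 102 for YMR085W. FUB1, whose product binds the proteasome, read 9.47 and 20.9 on the 0 day arrays and 136 and 131 on the 14 day arrays, and VPS13, a lipid transfer protein at membrane contacts, read 8.78 and 32.1 on the 0 day arrays and 116 and 140 on the 14 day arrays. Log2 fold changes were 3.79 for YHR022C, 3.29 for YMR085W, 3.25 for FUB1 and 2.93 for VPS13, with the last at 2.04 without 0 day replicate 1 and 3.85 without 0 day replicate 2. Over the alternatives these values fell as low as 1.71 for YHR022C, 2.11 for YMR085W and 2.29 for FUB1, each with 16 added to the signals before log2. Their 0 day arrays were the 2 lowest of the 8 for YHR022C, YMR085W, FUB1 and VPS13, and already at 3 days FUB1 (94.4 and 149.8) and YHR022C (52.2 and 45.8) stood far above them.

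The other large rises among the first 12 were YNR014W (69.5 and 46.3 at 0 days, 587 and 315 at 14 days), the heme-binding protein DAP1 (271 and 109.6, then 889 and 1522), the endoplasmic reticulum J protein HLJ1 (492 and 207, then 1334 and 3360) and YLR108C (42.8 and 33.9, then 208 and 261). YNR014W and YLR108C carry no gene name. Log2 fold changes were 2.92, 2.75, 2.73 and 2.61, with limma adjusted p from 0.0155 for YLR108C to 0.0358 for HLJ1. DAP1 and HLJ1 had their lowest value on 0 day replicate 2, and without that array they were 2.10 and 2.10, against 3.44 and 3.35 without 0 day replicate 1. For HLJ1 the 14 day arrays differed as well, with 3.41 without 14 day replicate 1 and 2.08 without 14 day replicate 2.

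Among the falls, ADY4, which belongs to the meiotic spindle pole body, had the largest value and the least certain one. Its signal was 96.8 and 114 on the 0 day arrays and 2.79 and 14.1 on the 14 day arrays, the first of the 14 day values lying next to the floor (log2 fold change -4.07, limma adjusted p = 0.0358, -2.90 without 14 day replicate 1 and -5.26 without 14 day replicate 2). PHO3, an acid phosphatase, fell from 1009 and 2126 to 143 and 179 (log2 fold change -3.19, limma adjusted p = 0.0155), with values between these on all 3 and 7 day arrays. OPT2, an oligopeptide transporter, fell from 776 and 1501 to 152 and 125 (log2 fold change -2.97, limma adjusted p = 0.0155). In contrast to PHO3, the 3 day arrays of OPT2 (1316 and 1664) were as high as those of 0 days. COS12, of a subtelomeric family of membrane proteins, read 205 and 206 on the 0 day arrays and 14.6 and 54.3 on the 14 day arrays (log2 fold change -2.87), and its change was -1.92 without 14 day replicate 1 and -3.83 without 14 day replicate 2. FRD1, a soluble fumarate reductase, read 601 and 971 on the 0 day arrays and 191 and 109 on the 14 day arrays (log2 fold change -2.40, limma adjusted p = 0.0417). For both genes the 14 day arrays lay below both 0 day arrays.

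**Figure D2:**
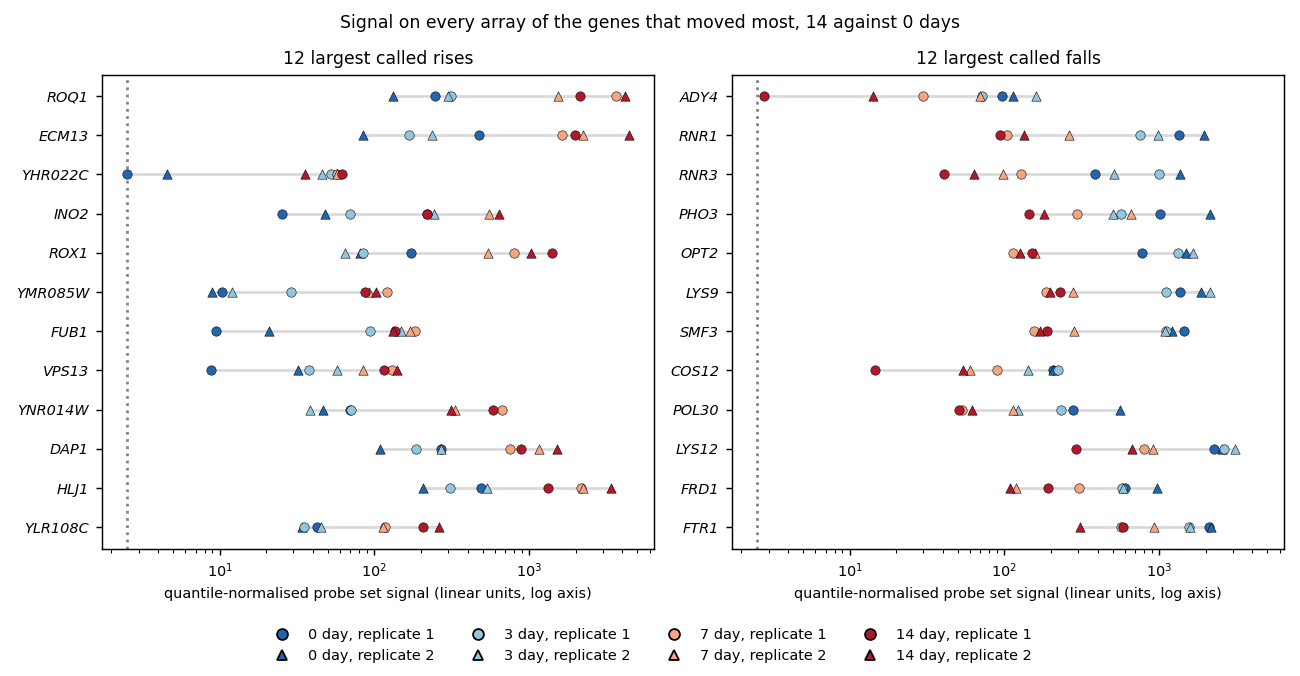
Quantile-normalised signal (log axis, linear units) of the 12 largest called rises and the 12 largest called falls on each of the 8 arrays, coloured by freezing time, with circles for replicate 1 and triangles for replicate 2, and the floor of 2.52 dotted. For most genes the 7 day points lie with the 14 day points and the 3 day points with the 0 day points. FUB1 and YHR022C are among the exceptions, with 3 day points near those of 14 days.

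Chaperone transcripts rose in several classes. The gene lists here and below were chosen with earlier results of these data known, so their counts and medians are no independent support. Small heat shock proteins and their partners hold, sort and dissolve aggregates. Their list also holds heat shock proteins of other roles, such as HSP12 and HSP30, and of its 8 genes tested 3 rose and 0 fell. HSP12, a small protein that binds membranes, read 3855 and 3133 on the 0 day arrays and 8872 and 7999 on the 14 day arrays (1.28 ± 0.26 SE on the log2 scale, limma adjusted p = 0.0381). HSP42, which gathers misfolded proteins into assemblies, read 1317 and 1097 on the 0 day arrays and 3425 and 4863 on the 14 day arrays (1.76 ± 0.36 SE on the log2 scale, limma adjusted p = 0.0415). BTN2, which sorts aggregates, read 797 and 1364 on the 0 day arrays and 3347 and 4227 on the 14 day arrays (1.85 ± 0.39 SE on the log2 scale, limma adjusted p = 0.0433). In each of these genes both 14 day arrays stood above both 0 day arrays, and for BTN2 they also stood above both 7 day arrays (2064 and 1122). The other 5 genes were not called, with log2 fold changes of 2.48 for HSP30, a plasma membrane protein, 1.84 for HSP26, 1.76 for CUR1, a relative of BTN2, 1.29 for HSP31 and 1.03 for the disaggregase HSP104. Without 0 day replicate 2 HSP30 was at 1.71 and HSP26 at 0.99, and without 0 day replicate 1 they were at 3.29 and 2.74. The list median was 1.76 against 0.11 over all genes, and it was 1.37 without 0 day replicate 2.

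The Hsp70 system refolds proteins with the help of J proteins and exchange factors. Of 14 genes tested, 3 rose and 0 fell, with a median of 1.01. FES1, an exchange factor of cytosolic Hsp70, read 3341 and 3347 on the 0 day arrays and 8661 and 9319 on the 14 day arrays (1.43 ± 0.22 SE on the log2 scale, limma adjusted p = 0.0156). The 0 day replicates of FES1 agreed closely and lay well below both 14 day arrays. SSE2, an Hsp110, read 349.9 and 212 on the 0 day arrays and 1009 and 1259 on the 14 day arrays (log2 fold change 2.05, limma adjusted p = 0.0485), and HLJ1 was the third. The heat-inducible Hsp70 SSA4 read 1388 and 856 on the 0 day arrays and 2846 and 5080 on the 14 day arrays (log2 fold change 1.80, limma adjusted p = 0.0669) and did not pass. Values that did not pass included 0.90 for SSA1 and 0.86 for SSA2, the main cytosolic Hsp70 proteins, 1.04 and 0.98 for the J proteins SIS1 and YDJ1, and -0.67 and -0.44 for the ribosome-bound pair SSZ1 and ZUO1. Of the 14 genes, 11 lay above 0 and 3 below. SSA1 and SSA2 belong to a family of near-identical copies, so their signals may be mixed.

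Of 13 genes of Hsp90 and its partners, 2 rose and 0 fell. CPR6, a co-chaperone, read 2335 and 2031 on the 0 day arrays and 5375 and 7406 on the 14 day arrays (log2 fold change 1.54, limma adjusted p = 0.0415), and HSP82, the inducible Hsp90, read 897 and 482 on the 0 day arrays and 2364 and 2415 on the 14 day arrays (log2 fold change 1.86, limma adjusted p = 0.0381). Cross-binding of its probe set to a near-identical copy is possible, and HSP82 was already high on both 3 day arrays (1542 and 2114). STI1, which joins Hsp70 to Hsp90, read 2243 and 1822 on the 0 day arrays and 3931 and 5729 on the 14 day arrays and was not called (log2 fold change 1.23, limma adjusted p = 0.0603). In mitochondria, the co-chaperonin HSP10 rose from 1828 and 2064 to 4655 and 5621 (log2 fold change 1.40, limma adjusted p = 0.0287), while the J protein MDJ1 (1.60) and the disaggregase HSP78 (1.18) were not called among 9 genes tested. Of 33 proteasome genes, 0 rose and 0 fell (median 0.52), and their activator RPN4 was at 1.22 (limma adjusted p = 0.0845). Of 21 ubiquitin ligases and regulators for misfolded proteins, ROQ1 alone was called (median 0.29).

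Other folding groups had medians below 0 after normalisation and above 0 without normalisation, which put the median over all genes at 0.59. For 6 of 10 genes for folding in the endoplasmic reticulum both 14 day arrays lay below both 0 day arrays, where 22.9% of all genes did so. Of the 10 genes 0 rose and 0 fell, with a median of -0.48. That median was 0.03 on unnormalised values. The J protein JEM1 read 109 and 79.1 on the 0 day arrays and 22.5 and 6.12 on the 14 day arrays (log2 fold change -2.98, limma adjusted p = 0.0676), and the disulfide isomerase EUG1 was at -1.47 (limma adjusted p = 0.0901). The chaperonin TRiC, which folds actin and tubulin, had 0 rises and 0 falls among 8 genes and a median of -0.17 (0.40 on unnormalised values).

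**Figure D3:**
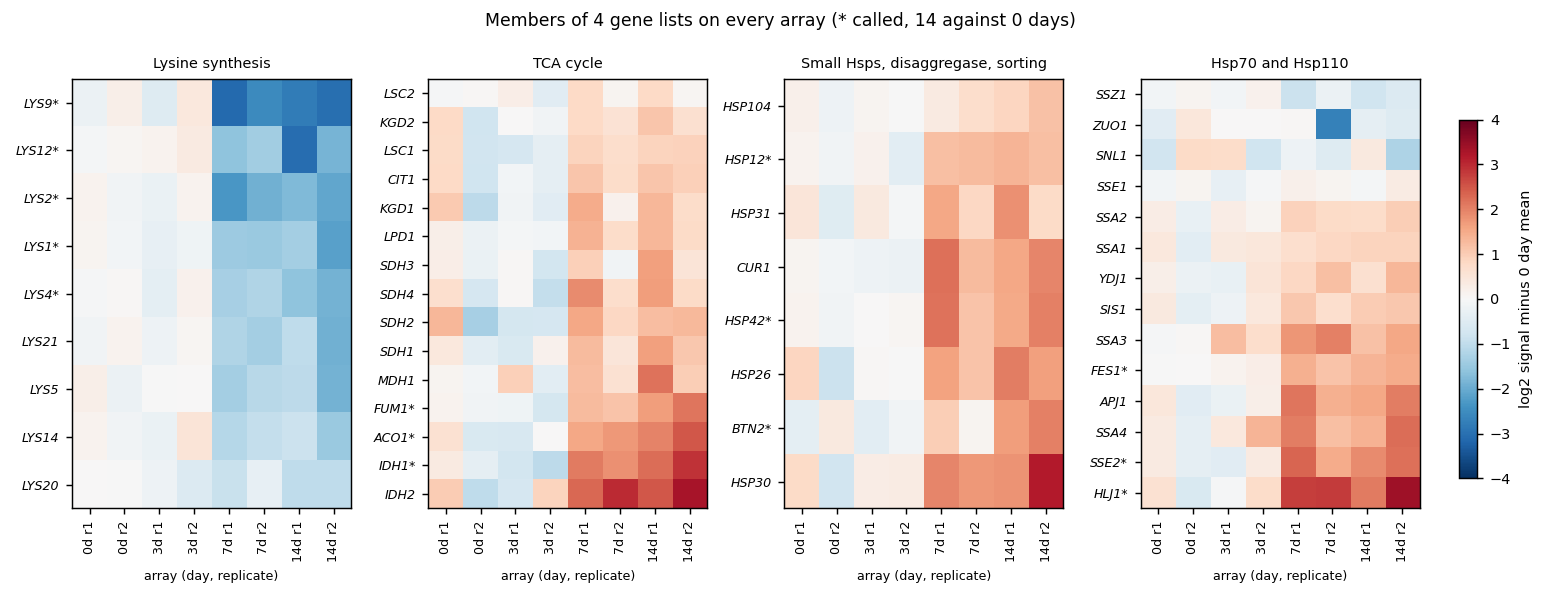
Log2 signal minus the mean of the 0 day arrays for every tested member of 4 lists on each of the 8 arrays (columns, day and replicate), with blue below and red above and an asterisk at genes called for 14 against 0 days. All 9 lysine genes are blue on the 7 and 14 day arrays, and most TCA cycle and chaperone genes are red there. In the TCA cycle the 2 columns of 0 days differ from each other.

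The TCA cycle oxidises acetyl units in mitochondria. Of 15 genes tested, 3 rose and 0 fell. Following the cycle, ACO1, the aconitase, read 849.8 and 367 on the 0 day arrays and 2187 and 3105 on the 14 day arrays (2.22 ± 0.44 SE on the log2 scale, limma adjusted p = 0.0378). IDH1, a subunit of isocitrate dehydrogenase, read 338 and 209 on the 0 day arrays and 1244 and 1969 on the 14 day arrays (2.56 ± 0.40 SE on the log2 scale, limma adjusted p = 0.0173). FUM1, the fumarase, read 487 and 397 on the 0 day arrays and 1388 and 1930 on the 14 day arrays (1.90 ± 0.36 SE on the log2 scale, limma adjusted p = 0.0345). The 14 day arrays of IDH1 and FUM1 were above those of all other times, and 0 day replicate 2 was the lower 0 day array for all 3 genes, with ACO1 at 1.60 without it and 2.82 without 0 day replicate 1. IDH2, the other subunit of isocitrate dehydrogenase, read 1703 and 414 on the 0 day arrays and 4671 and 8182 on the 14 day arrays, so its 0 day arrays lay far apart (log2 fold change 2.88, limma adjusted p = 0.0519, not called).

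Other TCA genes were not called: the citrate synthase CIT1 was at 1.03, the oxoglutarate dehydrogenase genes KGD1, KGD2 and LPD1 at 1.03, 0.88 and 1.04, and the succinyl-CoA ligase genes LSC1 and LSC2 at 0.92 and 0.44. Succinate dehydrogenase genes SDH1, SDH2, SDH3 and SDH4 were at 1.37, 1.28, 1.07 and 1.22, and the malate dehydrogenase MDH1 at 1.57. SDH2 read 1067 and 172 on the 0 day arrays and 1016 and 1060 on the 14 day arrays, and 0 day replicate 1 alone was as high as 14 days. The list median of 1.22 was 0.79 without 0 day replicate 2 and 1.83 without 0 day replicate 1. It was 0.22 in array set 1 and 2.08 in array set 2. Against the 0 day mean it was 0.61 and -0.61 on the 0 day arrays, and 1.63 and 0.95 at 14 days. The sets thus join the higher 0 day array to the lower 14 day array and the reverse, which widens their gap. The same holds for the set values of the Msn2 and Msn4, trehalose and glycogen lists below. Values for the other pairing are not given here. Without 0 day replicate 2, KGD1 and SDH2 turned below 0, at -0.017 and -0.04, and CIT1, KGD2, LSC1 and SDH4 were at 0.25, 0.08, 0.15 and 0.54. Without 0 day replicate 1 these 6 genes were at 2.10, 2.61, 1.81, 1.71, 1.69 and 1.90 in the same order.

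HAP4, the regulated subunit of the activator of respiratory genes, rose 5.85-fold. It read 113 and 101 on the 0 day arrays and 518 and 749 on the 14 day arrays (2.55 ± 0.37 SE on the log2 scale, limma adjusted p = 0.0155), and all 0 and 3 day arrays lay within a narrow range while the 7 and 14 day arrays stood above them. Its DNA-binding partners were not called, with HAP2 at 1.76 (limma adjusted p = 0.0561), HAP5 at 1.96 (limma adjusted p = 0.0707) and HAP3 at 0.61. HAP1, the heme-dependent activator, was at -0.88 and not called. With ROX1, 2 of 13 respiratory regulators rose, and the median of 1.69 was 0.83 without 0 day replicate 2. In the respiratory chain and ATP synthase, SCO1, a copper chaperone of cytochrome c oxidase, read 56 and 44.1 on the 0 day arrays and 175 and 147 on the 14 day arrays and was the 1 called of 44 genes (log2 fold change 1.69, limma adjusted p = 0.0487, list median 0.60). MIC10, which shapes cristae, rose from 1488 and 1233 to 3877 and 4515 (log2 fold change 1.63, limma adjusted p = 0.0251), and its second probe set gave 1.06. Of 75 mitochondrial ribosomal protein genes 0 rose and 0 fell, with a median of 0.67. Both 14 day arrays lay above both 0 day arrays for 41 of them, where 28% of all genes did so.

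Carriers of the inner mitochondrial membrane moved in both directions. DIC1, which exchanges dicarboxylates, rose from 169.9 and 236 to 1522 and 848 (log2 fold change 2.50, limma adjusted p = 0.0257). YHM2, a carrier of citrate and oxoglutarate, fell from 1367 and 1550 to 424 and 362 (log2 fold change -1.90, limma adjusted p = 0.0287), and CTP1, the citrate transporter, fell from 2081 and 2596 to 651 and 726 (log2 fold change -1.76, limma adjusted p = 0.0406). DIC1 was already raised on the 3 day arrays (641 and 748), whereas YHM2 (1557 and 2053) and CTP1 (2278 and 3120) had not come down there. Of 27 carriers tested, these 3 were called. UPS2, which governs mitochondrial phospholipids, read 252 and 429 on the 0 day arrays and 1717 and 2174 on the 14 day arrays (log2 fold change 2.56, limma adjusted p = 0.0155), with both 14 day values the highest of the 8 arrays.

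Lysine synthesis held the most calls of any list in 1 direction. This list too was chosen with earlier results of these data known, so that rank and the counts below add no independent support. Fungi make lysine from oxoglutarate and acetyl-CoA through aminoadipate, and of 9 genes tested 5 fell and 0 rose. The first step, homocitrate synthase, is encoded by LYS20, which read 8126 and 7841 on the 0 day arrays and 3938 and 3963 on the 14 day arrays, and LYS21, which read 1822 and 2187 on the 0 day arrays and 985 and 526 on the 14 day arrays, and neither was called (log2 fold changes -1.02 and -1.47, limma adjusted p = 0.0671 for each). Then LYS4, the homoaconitase, fell from 759.9 and 809.8 to 257 and 210 (-1.76 ± 0.36 SE on the log2 scale, limma adjusted p = 0.0415). LYS12, the homoisocitrate dehydrogenase, fell from 2269 and 2533 to 289 and 666 (-2.45 ± 0.40 SE on the log2 scale, limma adjusted p = 0.0226), and its 14 day arrays differed, with -1.85 without 14 day replicate 1 and -3.07 without 14 day replicate 2. For both genes the 0 and 3 day arrays lay above all later ones.

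LYS2, the aminoadipate reductase, fell from 987 and 797 to 259 and 209 (-1.93 ± 0.37 SE on the log2 scale, limma adjusted p = 0.0345). LYS5, which activates Lys2, read 364 and 266 on the 0 day arrays and 149 and 84.4 on the 14 day arrays and was not called (log2 fold change -1.47, limma adjusted p = 0.0835). The last 2 steps are those of LYS9, which fell from 1374 and 1871 to 230.3 and 198 (-2.91 ± 0.42 SE on the log2 scale, limma adjusted p = 0.0155), and LYS1, which fell from 1694 and 1433 to 609 and 344 (-1.77 ± 0.36 SE on the log2 scale, limma adjusted p = 0.0415). LYS14, the activator of the pathway, read 133 and 109.8 on the 0 day arrays and 67 and 42.9 on the 14 day arrays and was not called (log2 fold change -1.17, limma adjusted p = 0.147). Both 14 day arrays lay below both 0 day arrays for 9 of 9 genes, where 22.9% of all genes did so, and the median of -1.76 ran from -1.90 to -1.14 over the alternatives. The TCA cycle genes ACO1 and IDH1, whose reactions resemble those of LYS4 and LYS12, rose, as given above. Of 57 genes for other amino acids (lysine and sulfur left out), 0 rose and 0 fell, with HIS6 (-1.72, limma adjusted p = 0.0508), ARG8 (-1.55) and THR4 (-1.52) having the smallest p and a list median of -0.50.

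Ribonucleotide reductase makes the building blocks of DNA, and its large subunits RNR1 and RNR3 fell. RNR1, the main large subunit, read 1348 and 1946 on the 0 day arrays and 93.9 and 133 on the 14 day arrays, a 14.5-fold fall (-3.86 ± 0.48 SE on the log2 scale, limma adjusted p = 0.014). RNR3, the damage-inducible one, read 383 and 1358 on the 0 day arrays and 40.5 and 64 on the 14 day arrays (-3.83 ± 0.58 SE on the log2 scale, limma adjusted p = 0.0155), and its change was -2.90 without 0 day replicate 2 and -4.80 without 0 day replicate 1. The probe set of RNR3 can bind related transcripts, so it may also read RNR1. RNR1 was intermediate on the 3 day arrays (750.1 and 981), and both 14 day arrays were among its 3 lowest values.

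Small subunits and regulators were not called. RNR2 read 1415 and 1038 on the 0 day arrays and 624 and 342 on the 14 day arrays (log2 fold change -1.39, limma adjusted p = 0.091), RNR4 was at -0.37 and SML1, the protein inhibitor of the enzyme, at 0.13. RNR4 was 0.21 on unnormalised values, and SML1 was -0.20 with equal array medians, so neither has a direction here. RFX1, a repressor of the RNR genes, was at -1.36 (limma adjusted p = 0.102). In the list of genes that rise between G1 and S phase or that replicate DNA, 2 of 44 tested fell and 0 rose (of 52 listed), with a median of -0.78. POL30, the sliding clamp, fell from 278 and 562 to 50.9 and 62.2 (log2 fold change -2.81, limma adjusted p = 0.0287), and POL12, a subunit of DNA polymerase alpha, from 121 and 155 to 27.9 and 35 (log2 fold change -2.13, limma adjusted p = 0.0437). RFC4, a clamp loader subunit, read 144 and 148 on the 0 day arrays and 28.5 and 65.2 on the 14 day arrays and was not called (log2 fold change -1.76, limma adjusted p = 0.0707). Both POL30 and POL12 had intermediate values at 3 days (232 and 123 for POL30 and 106 and 82.8 for POL12).

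Iron genes changed in both directions. Of 28 tested, 3 fell, all of them for iron transporters, and 1 rose. SMF3, which exports iron from the vacuole, read 1437 and 1209 on the 0 day arrays and 189 and 170 on the 14 day arrays, a 7.36-fold fall (-2.88 ± 0.38 SE on the log2 scale, limma adjusted p = 0.014). FTR1, the high-affinity permease of the plasma membrane, fell from 2097 and 2169 to 585 and 306 (log2 fold change -2.33, limma adjusted p = 0.0251), and FET4, the low-affinity transporter, fell from 1637 and 1633 to 266 and 567 (log2 fold change -2.07, limma adjusted p = 0.0358). FET3, the oxidase that works with Ftr1, read 3087 and 1548 on the 0 day arrays and 400 and 640.3 on the 14 day arrays and was not called (log2 fold change -2.11, limma adjusted p = 0.082), as were the reductases FRE1 (-1.68) and FRE4 (-1.56). Siderophore transporters ARN1, ARN2 and SIT1 were at -0.99, -1.05 and -1.10, and the regulators AFT1 and AFT2 at 0.27 and 0.87, none of them called. FIT1 was at 1.44 and FTH1 at 0.68, also not called, and further members are not given here. Of the 28 genes, 10 lay above 0 and 18 below.

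The iron gene that rose was ISU1, the scaffold on which iron-sulfur clusters are built. It read 1034 and 503 on the 0 day arrays and 2603 and 3855 on the 14 day arrays (log2 fold change 2.14, limma adjusted p = 0.0287), with 0 day replicate 2 the lowest of the 8 arrays. Its close relative ISU2 read 756 and 969 on the 0 day arrays and 1419 and 1198 on the 14 day arrays and was not called (log2 fold change 0.61). DRE2, which acts in cytosolic iron-sulfur assembly, rose from 481 and 399.6 to 1191 and 1439 (log2 fold change 1.58, limma adjusted p = 0.0433). The median of the iron list was -0.42 and turned to 0.13 on unnormalised values, where the median over all genes was 0.59. For heme and oxygen-regulated genes, ROX1 was the 1 called of 21, and HEM1, the first enzyme of heme synthesis, read 1142 and 1167 on the 0 day arrays and 565 and 309 on the 14 day arrays and was not called (log2 fold change -1.47, limma adjusted p = 0.0979).

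Other uptake genes were among the falls. The ammonium permease MEP2 fell from 1517 and 2164 to 475 and 573 (log2 fold change -1.80, limma adjusted p = 0.0345), and MEP3 fell from 479 and 638 to 152 and 162 (log2 fold change -1.82, limma adjusted p = 0.0358). MEP2 (2411 and 2607) and MEP3 (997 and 871) were higher on both 3 day arrays than on both 0 day arrays. Of 23 amino acid and peptide permeases tested, OPT2 was the 1 called, while BAP2, for branched-chain amino acids, read 441 and 228 on the 0 day arrays and 1182 and 823 on the 14 day arrays (log2 fold change 1.64, limma adjusted p = 0.0845). Of 23 phosphate genes tested PHO3 was the 1 called. VBA4, a vacuolar membrane protein, fell from 374 and 471 to 94.3 and 98.4 (log2 fold change -2.12, limma adjusted p = 0.0251). SPE3, the spermidine synthase, fell from 699.5 and 649 to 161 and 141 (log2 fold change -2.16), and BNA4, of NAD synthesis, fell from 1016 and 727 to 219 and 209 (log2 fold change -2.01). PDC5, a minor pyruvate decarboxylase, fell from 2430 and 2228 to 583 and 443 (log2 fold change -2.20, limma adjusted p = 0.0257) as the 1 called of 26 genes of glycolysis and fermentation, and it was already low on the 3 day arrays (773 and 724).

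Genes for cytosolic ribosomal proteins had lower signals after 14 days. Of 80 tested 4 fell and 0 rose, with a median of -0.61. Both 14 day arrays lay below both 0 day arrays for 67 of them, where 22.9% of all genes did so. RPS22A read 16450 and 18920 on the 0 day arrays and 8369 and 8227 on the 14 day arrays, RPL25 read 4183 and 4892 on the 0 day arrays and 2005 and 1941 on the 14 day arrays, RPL33A read 4481 and 4683 on the 0 day arrays and 1680 and 1617 on the 14 day arrays and RPS1B read 2647 and 3080 on the 0 day arrays and 652 and 502 on the 14 day arrays. Log2 fold changes were -1.09, -1.20, -1.48 and -2.32 in that order, and the 3 day arrays of these 4 genes were no lower than the lowest 0 day array. A second gene copy can also bind the probe sets of RPL33A and RPS1B. The list median was -0.44 on unnormalised values and -0.87 with equal array medians. In a fit over all probe sets, 8 of 257 assigned to several genes were called (3.11%, against 1.22% of those with 1 gene), and all 8 fell. Of these, 6 are assigned to pairs of ribosomal protein genes and 2 to the flocculin genes FLO1, FLO5 and FLO9. Of 21 aminoacyl-tRNA synthetases 0 rose and 0 fell, with 19 below at both arrays (22.9% of all genes) and a median of -0.72. Of 73 genes of ribosome assembly 0 rose and 0 fell. Their median of -0.23 turned to 0.30 on unnormalised values, where the median over all genes was 0.59.

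RNAs without a poly(A) tail were among the rises. RDN5-3, a 5S ribosomal RNA, read 2299 and 922 on the 0 day arrays and 6922 and 7324 on the 14 day arrays (log2 fold change 2.29, limma adjusted p = 0.0345), with 2.93 and 1.61 without 0 day replicates 1 and 2. SNR128, a small nucleolar RNA, read 3458 and 2475 on the 0 day arrays and 6092 and 7841 on the 14 day arrays (log2 fold change 1.24, limma adjusted p = 0.0434). Both rose together with the ribosomal RNA signal of the arrays given above, in RNA that had been enriched for poly(A), and whether the enrichment differed between the samples was not tested.

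General stress genes were mostly higher but seldom called. Of 48 genes of the type driven by Msn2 and Msn4, the general stress activators, HSP12 was the 1 called. Both 14 day arrays lay above both 0 day arrays for 30 of them, where 28% of all genes did so. The list median was 1.13. That median was 0.41 without 0 day replicate 2 and 1.85 without 0 day replicate 1, and 0.40 in array set 1 and 1.99 in array set 2. CTT1, the cytosolic catalase, read 2.52 and 12.9 on the 0 day arrays and 49.2 and 63.8 on the 14 day arrays, with 0 day replicate 1 at the floor (log2 fold change 3.30, limma adjusted p = 0.0773, not called). TSA1, a peroxiredoxin, rose from 957 and 725 to 3214 and 3175 (log2 fold change 1.94, limma adjusted p = 0.0397) as the 1 called of 16 genes of peroxide and superoxide defence, and AHP1, another peroxiredoxin, read 1527 and 639 on the 0 day arrays and 2695 and 2708 on the 14 day arrays and was not called. Trehalose is known to protect yeast from freezing, and of 11 genes for its synthesis and breakdown 0 rose and 0 fell, with a median of 0.52 that turned to -0.40 without 0 day replicate 2 and was -0.48 in array set 1 and 1.78 in array set 2. TPS1, the synthase, read 326 and 79.4 on the 0 day arrays and 369 and 317 on the 14 day arrays, so the groups overlapped. AQY3, an aquaglyceroporin, read 52.5 and 41.1 on the 0 day arrays and 286 and 190.3 on the 14 day arrays and was not called (log2 fold change 2.33, limma adjusted p = 0.0845) among 15 glycerol and aquaporin genes, of which 0 rose and 0 fell.

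Membrane and wall genes were split as well. TIP1, a mannoprotein of the wall that is induced by cold, rose from 2403 and 1599 to 6575 and 7680 (1.86 ± 0.28 SE on the log2 scale, limma adjusted p = 0.0155). It was the 1 called of 8 tested mannoproteins of the cold and of anoxia, where TIR1 read 1946 and 1930 on the 0 day arrays and 2630 and 5116 on the 14 day arrays (log2 fold change 0.92, limma adjusted p = 0.235). NCE102, of the eisosomes that furrow the plasma membrane, rose from 707 and 292 to 1777 and 2747 (log2 fold change 2.28, limma adjusted p = 0.0358), with 2.92 and 1.63 without 0 day replicates 1 and 2. INO2 was the 1 called of 23 genes of inositol-regulated phospholipid synthesis, and that list, which holds genes Ino2 is known to activate, had a median of 0.02. OPI1, the repressor of that system, read 493 and 515 on the 0 day arrays and 1134 and 648 on the 14 day arrays and was not called (log2 fold change 0.77).

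Among called falls in no list, LAC1, a ceramide synthase subunit, fell from 776 and 901 to 177 and 263 (log2 fold change -1.95, limma adjusted p = 0.0345). GWT1, of GPI anchor synthesis, fell from 335 and 574 to 129 and 97.2 (log2 fold change -1.97), ALG7, the first step of N-glycosylation, from 242 and 289 to 83.2 and 45.3 (-2.11), and PMT4, an O-mannosyl transferase, from 1486 and 1473 to 414 and 507 (-1.69). SCW10, a wall protein related to glucanases, fell from 1399 and 1990 to 303 and 380.1 (log2 fold change -2.30, limma adjusted p = 0.0251), and a second probe set gave -1.76. SCW10 was the 1 called of 40 wall genes and was already low at 3 days (555 and 755). In ergosterol synthesis 0 of 28 genes rose and 0 fell, and in fatty acid synthesis and desaturation 0 of 19 rose and 0 fell.

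Called genes that stand in none of the 52 lists numbered 44 of 90. Those that rose and are not yet named include ARC18, of the Arp2/3 actin complex (19.7 and 36.8 at 0 days, 139.7 and 163 at 14 days, log2 fold change 2.49), UBX5, a cofactor of Cdc48 (2.11), RAD59, of recombination (2.07), EAP1, which binds the cap-binding protein (2.01), and NCE103, the carbonic anhydrase (589 and 659 at 0 days, 3120 and 1853 at 14 days, 1.95). HRK1, a kinase that activates the proton pump of the plasma membrane, was at 1.87, the chromatin remodeller subunit RSC2 at 1.74 and the peroxisomal thioesterase TES1 at 1.71. PEX21, of peroxisomal import, stands in a list and was at 2.25 (167 and 139.5 at 0 days, 531 and 985 at 14 days). The rest of the rises were YDR222W (2.23), ANS1 (2.18), YHR033W (2.06), CMI8 (2.05), HVG1 (1.98), RCI37 (1.90), PRM10 (1.78) and PER33 (1.58). Falls outside the lists and not yet named were KAP123, an importin for ribosomal proteins (1255 and 1257 at 0 days, 319 and 321 at 14 days, -1.97), MOT1, which removes the TATA-binding protein from DNA (-1.87), RKR1, a ligase of ribosome quality control (-1.65), and YCL002C (-1.74). In every gene of this paragraph the arrays of the 2 groups did not overlap, which largely follows from the call and adds no support.

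**Figure D4:**
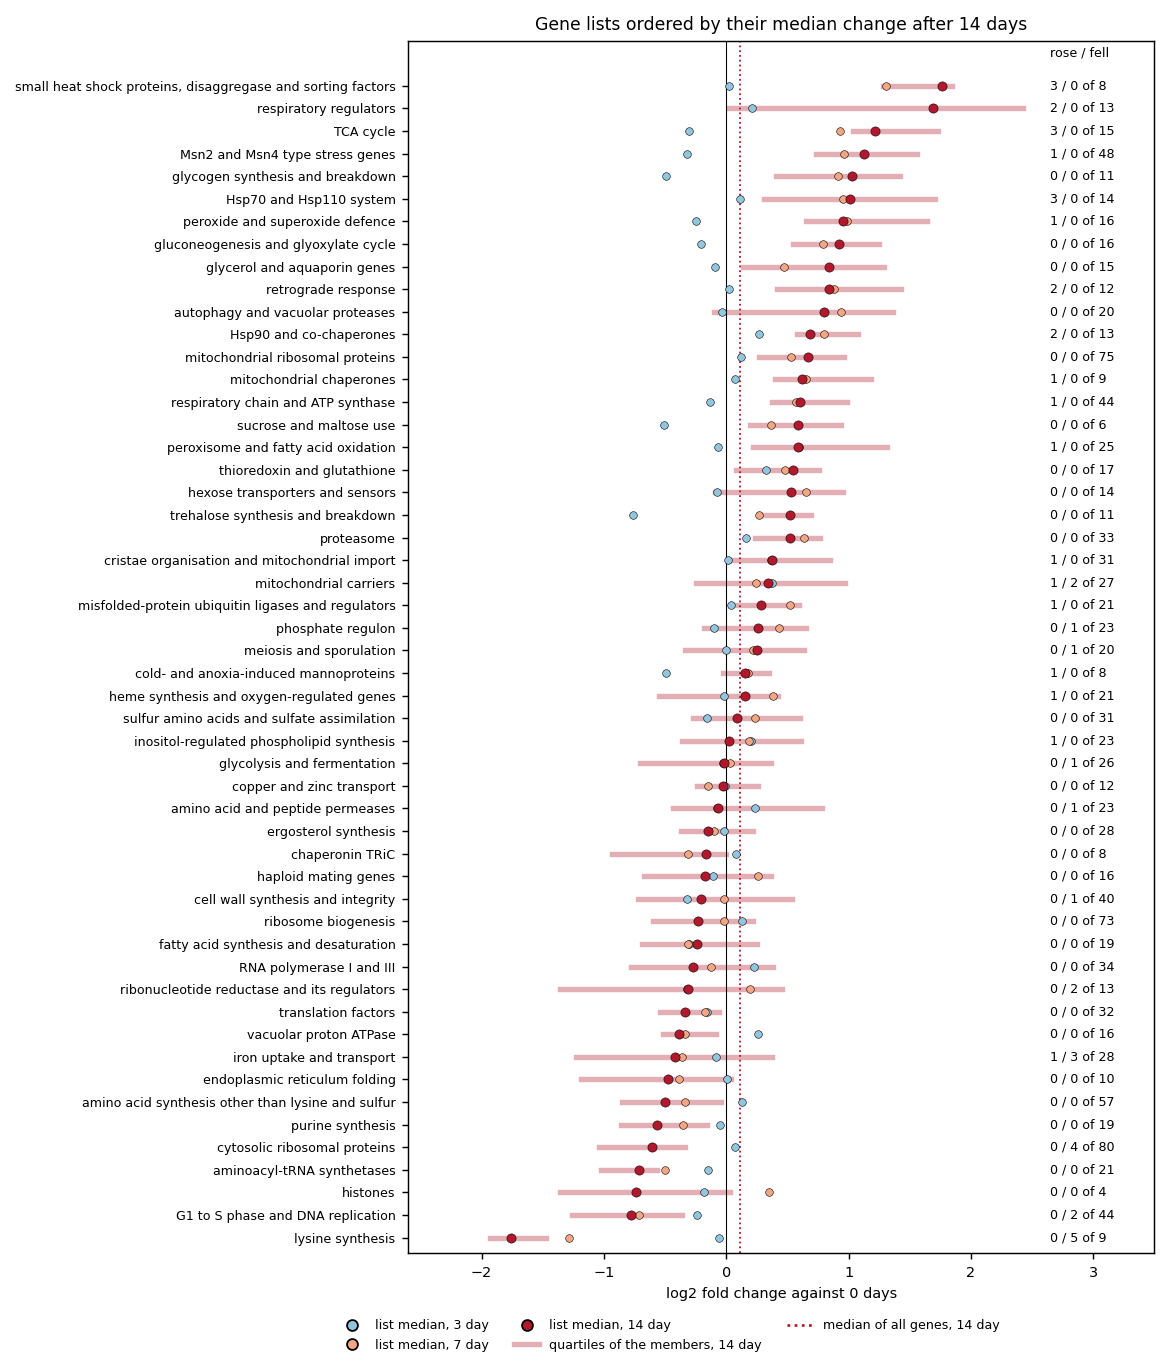
Median log2 fold change against 0 days of each of the 52 gene lists at 3, 7 and 14 days (points), with the quartiles of the members at 14 days (bars), the median of all genes at 14 days (dotted line) and, at the right, how many members rose and fell at 14 days of how many tested. The lists of small heat shock proteins and of lysine synthesis stand at the 2 ends, and 7 day medians lie nearer to those of 14 days than 3 day medians do for most lists.

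Of the 52 lists, 16 held rises only, 9 held falls only, 2 held both and 25 held no called gene. The lists with no call included gluconeogenesis and the glyoxylate cycle (median 0.92, 0.11 without 0 day replicate 2), glycogen (1.03, 0.17 without that array, -0.08 in array set 1 and 1.91 in array set 2), hexose transporters (0.53), purine synthesis (-0.56), the vacuolar proton pump (-0.39) and histones (-0.74, and -0.13 without 14 day replicate 2, with 4 of 10 listed genes tested). ICL1, the isocitrate lyase of the glyoxylate cycle, read 2411 and 1146 on the 0 day arrays and 4515 and 4553 on the 14 day arrays (log2 fold change 1.45, limma adjusted p = 0.0639), and HTB2, a histone H2B gene, read 712 and 776 on the 0 day arrays and 207 and 217 on the 14 day arrays (log2 fold change -1.81, limma adjusted p = 0.0561), both just outside the calls. On unnormalised values, where the median over all genes was 0.59, 15 of 52 medians changed sign. Without 0 day replicate 2 the sign of 6 changed. In the lists that mark other cell states, ADY4 was the 1 called of 20 tested meiosis genes (of 48 listed, since 28 lay below the filter), and of 16 tested haploid mating genes 0 rose and 0 fell. MFA1, an a-factor gene, read 279 and 337 on the 0 day arrays and 1226 and 659 on the 14 day arrays (log2 fold change 1.55, limma adjusted p = 0.0845), whereas the alpha-factor gene MF(ALPHA)1 read 77.5 and 170.3 at 0 days and 46.8 and 76.2 at 14 days.

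The called genes had changes of similar size at 7 days and, for most of them, values near 0 at 3 days. Between 14 and 7 days limma called 0 of 5188 genes (48 at an unadjusted p under 0.05). The median log2 fold changes of the 52 genes that rose were 2.07 at 14 days, 1.78 at 7 days and 0.07 at 3 days, and those of the 38 that fell were -2.09, -1.60 and -0.07, all against the same 0 day arrays. Tested on its own, 7 against 0 days gave 6 rises (0.116%) and 5 falls (0.0964%). Between 14 and 3 days, 238 genes were called (4.59%), of which 133 rose (2.56%) and 105 fell (2.02%), against 223 and 72 on unnormalised values. That test called 68 of the 90 genes. The 14 rises that it did not call, among them INO2, FUB1, HSP82, DIC1, VPS13, SCO1 and YHR022C, had a median of 1.37 at 3 days. The 8 falls that it did not call (PHO3, SCW10, PDC5, POL30, KAP123, GWT1, MOT1 and POL12) had a median of -0.93 there. These medians largely follow from the split, since a large change from 0 days and a small one from 3 days leave a large one between. For 3 against 0 days limma called 0 rises and 0 falls.

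The median difference between 14 and 7 days was 0.30 for the genes that rose and -0.35 for those that fell, against -0.05 over all genes. Genes chosen for large changes at 14 days lean this way by the choice itself, so these medians do not show further change after 7 days. Of the called genes, those with the smallest p for that difference were named after their values were seen. BTN2 had a difference of 1.31 ± 0.39 SE on the log2 scale, ADY4 of -2.85 ± 0.79, PHO3 of -1.46 ± 0.48 and PRM10 of 1.27 ± 0.38, each with a limma adjusted p of 1. The median SE of such a difference was 0.45 on the log2 scale, and a p that misses the threshold does not show that 7 and 14 days were alike.

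The comparison of 7 against 3 days has no array in common with that of 14 against 0 days. The 3 and 7 day arrays did, however, enter the normalisation, the filter and the spread by which the genes were called. It called 39 genes higher at 7 days (0.752%) and 23 lower (0.443%). In it, 52 of the 52 genes that rose lay above 0, where 53.9% of all genes did, with a median of 1.52. Of the 38 that fell, 37 lay below 0, where 46.1% of all genes did, with a median of -1.37, and PDC5 was the exception at 0.07. Across the 5188 genes, which are not independent replicates, the 2 comparisons correlated at r = 0.607 (Spearman 0.632). The earlier and later times also differ in ribosomal RNA signal, from 6.76 to 11.3 times the array median at 0 and 3 days and from 15.7 to 22.7 times at 7 and 14 days, and its part in this pattern was not tested.

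**Figure D5:**
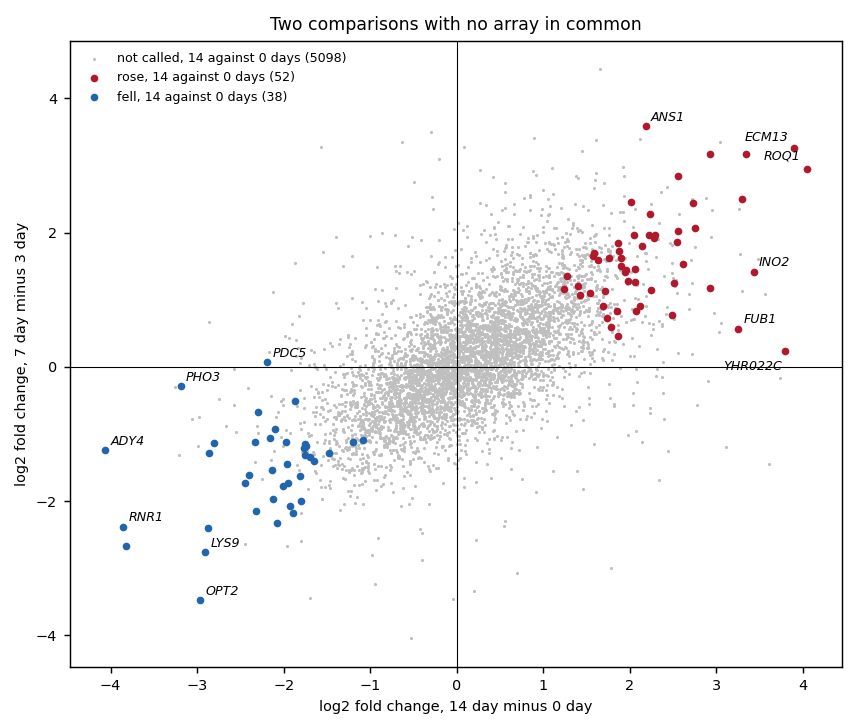
Log2 fold change of 7 against 3 days (vertical axis) against that of 14 against 0 days (horizontal axis), from 4 arrays each with none in common, for the 5188 genes tested, with genes called for 14 against 0 days in colour. All 52 red points lie above the horizontal zero line and 37 of the 38 blue points below it, with PDC5 just above.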

How the data were processed

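Messenger RNA of commercial baker's yeast was measured on 8 Affymetrix arrays, 2 each after 0, 3, 7 and 14 days at -20 °C. The authors deposited 1 linear intensity per probe set and array, all above 0. The summarising software and the scaling were not given in the sources used here. Detection calls were not used here. Of 9335 probe sets, 60 controls were removed. The platform annotation given for this work assigned 6504 of the rest to 1 gene, 328 to several and none to 2443. Gene names matched the RefSeq table of assembly R64.

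Arrays were quantile normalised, a floor was set at the pooled 5th percentile (2.52), and values were moved to log2. A probe set was kept if its log2 mean reached the 25th percentile (4.16), and the brightest probe set stood for each of 5188 genes. In R 4.3.3 and limma 3.58.1, all 8 arrays entered a model with 1 coefficient per time and 4 residual degrees of freedom, with empirical Bayes moderation along a trend in intensity, for which 6.89 prior degrees of freedom were estimated. Two-sided p-values received Benjamini-Hochberg adjustment over the 5188 genes of a comparison, and 0.05 was the limit for a call. The script was tested on simulated data. All signals in the text are normalised and on the linear scale.

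The comparison, the 52 gene lists, the tests and the alternatives were chosen with earlier results of these data known. Older gene symbols in the lists were replaced by current ones after the data were seen, and RPP1 and MRP8, which encode no ribosomal proteins, were then taken out of the 2 ribosomal protein lists. The rule for named genes gave array values for the 12 largest rises and 12 largest falls, for called list members and for up to 3 members of each list with the smallest p. The full lysine, TCA cycle and small heat shock protein lists and some Hsp70 and iron genes were added after values were seen. So were RNR4, SML1, CTT1 and the other called genes with values. Not every tested member of the Hsp70 and iron lists is given. Replicate numbers were checked for pairing by correlating deviations from the time means across genes between same-numbered arrays. Pairs with a 0 day array gave -0.088 to 0.086. Those among 3, 7 and 14 days gave 0.178 to 0.292, and there the replicate number and the array set coincide. The numbers were not taken to pair samples, and a fit with them as a block is given below. The submitters call the duplicates independent. The p-values rest on the spread between duplicates, pooled over the 4 times and moderated along the intensity trend. Promoter and protein sequences were not analysed here.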

Additional observations from a re-analysis of the deposited data

Results flagged for a closer look

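The change against 0 days differed between 14 and 3 days for 238 of 5188 genes by the limma test of 14 against 3 days itself. Of the 90 genes called for 14 against 0 days, 68 were among these. ROQ1 had a difference of 3.29 on the log2 scale, OPT2 of -3.42 and HAP4 of 2.54, while FUB1 was at 0.17 and YHR022C at -0.06. Leaving out 1 array moved the count of 238 to between 2 and 440, with 440 when either 0 day array was dropped. Dropping replicate 1 or replicate 2 gave 118 or 3 for the 3 day arrays, 134 or 121 for the 7 day arrays, and 2 or 6 for the 14 day arrays.

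The control probe sets for ribosomal RNA, which the gene tests left out, had a signal of 21.7 and 15.7 times the array median on the 14 day arrays, above both 0 day arrays at 8.85 and 6.76. The RNA had been enriched for poly(A). The part of this signal in the gene results was not tested.

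Probe sets without a gene name also passed the test, in a fit over all probe sets. Of 1050 tested, 9 were called, which is 0.857%, against 1.22% of probe sets with 1 gene. Of these 9, 3 rose and 6 fell. The largest fall went from 224 and 218 at 0 days to 2.52, the floor, and 7.95 at 14 days (limma adjusted p = 0.0194), with 71.4 and 119 at 3 days. The largest rise went from 14.6 and 34.9 to 619 and 325 (limma adjusted p = 0.0194). These transcripts were not identified here.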

How the results depend on the processing

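The count of 90 genes called for 14 against 0 days was 403 on unnormalised values, 48 with equal array medians and 137 with a filter at the median. It was 11 without the intensity trend, 17 with array weights and 0 with only the 0 and 14 day arrays in the fit (936 at an unadjusted p under 0.05). The count was 222 with the array set, the rank of each time's arrays by spike signal, as a block. With the replicate number as a block it was 158, and 430 for 14 against 3 days, although the numbers were not taken to pair the samples. Leaving out 1 array gave 0 to 245. The count of 238 for 14 against 3 days was 152 without a filter, 18 without the trend, 378 with array weights, 403 with the array set as a block and 2 to 440 with 1 array left out. Between 14 and 7 days the count stayed at 0 by limma except without 7 day replicate 1, where it was 6 (range 0 to 6). The fit of only 0 and 14 day arrays was not run for the other 2 comparisons, which it cannot hold. Each of the 90 calls ended under 3 to 14 alternatives.

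Single genes that changed sign were none of the called ones. With 1 array left out, log2 fold changes ran from -0.017 to 2.10 for KGD1, -0.04 to 2.61 for SDH2, -0.15 to 2.30 for MAL31 and -0.16 to 2.24 for SUC2, each lowest without 0 day replicate 2. They ran from -0.78 to 0.045 for RNR4, which was at 0.21 on unnormalised values, and from -0.20 to 0.46 for SML1, which was at -0.20 with equal array medians and at -0.035 without 0 day replicate 1. HHO1, a linker histone reported at -1.21, ran from -2.50 to 0.087. The cause of these changes was not tested. With 2 arrays per time the median SE was 0.45 on the log2 scale.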

Other observations

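Signals here are those of 0 day replicates 1 and 2 against 14 day replicates 1 and 2. Most genes of this section were chosen as the members of their lists with the smallest p. Arrays that do not overlap largely follow from that choice and add no support. Over all genes, 28% had both 14 day arrays above both 0 day arrays and 22.9% had them below. The mitochondrial genes given here were not called, and each had both 14 day arrays above both 0 day arrays. MRPL40, of the mitochondrial ribosome, read 79.2 and 96.5 against 281 and 302 (log2 fold change 1.74, limma adjusted p = 0.0576), MRPL28 79.5 and 55.3 against 171 and 283 and MRPL4 63.5 and 77.8 against 291 and 170.1. NDE1, an external NADH dehydrogenase, read 532 and 207 against 1271 and 932, and QCR2, a subunit of complex III, 227 and 93.7 against 363 and 455. The cristae protein MIC26 read 164 and 246 against 569.8 and 539.7, the import protease subunit MAS1 92.8 and 93 against 178 and 279.8, the J protein MDJ1 261 and 372 against 1064 and 843 and the disaggregase HSP78 624 and 690 against 1428 and 1554. HAP2, a subunit of the activator that Hap4 joins, read 43.7 and 35.5 against 121 and 148. For NDE1 and QCR2 the lower 0 day value was on replicate 2, as in the TCA cycle.

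Of the carbon and storage genes given here, all but SGA1 had their lower 0 day value on replicate 2. The glyoxylate and gluconeogenic genes MLS1 (1875 and 1025 against 3439 and 2926) and MDH2 (3557 and 864 against 3952 and 4382) had both 14 day arrays above both 0 day arrays. The glycogen synthase GSY1 read 62 and 41.3 against 155 and 115, the phosphorylase GPH1 92.5 and 56.9 against 288 and 136 and the glucoamylase SGA1 31.4 and 45.1 against 143 and 81.3. The trehalase genes NTH1 (542 and 309 against 589 and 820.4) and ATH1 (54.3 and 13.1 against 112 and 105) did too. The hexose transporters HXT2 (4065 and 1820 against 5872 and 6375), HXT6 (5621 and 2379 against 7324 and 7137) and HXT7 (5170 and 2387 against 6527 and 6178), of which the last 2 are near-identical copies, were also higher on both 14 day arrays. Medium without sucrose and maltose was used at all times, and of 6 tested genes for these sugars 0 rose and 0 fell: the invertase SUC2 read 625 and 122 against 553 and 571, the maltose permease MAL31 1345 and 246 against 1624 and 897 and the regulator MAL13 60.7 and 43.1 against 33 and 28.5. Other probe sets of SUC2 past the filter gave log2 fold changes of 1.43 and 1.81, against 1.03 for the one used. In glycolysis and fermentation ALD6 read 999 and 660.2 against 1965 and 1766 and PFK2 3018 and 2237 against 1338 and 1118. None of these genes was called by limma.

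Protein turnover and sulfur genes that were not called but had both 14 day arrays above both 0 day arrays included the proteasome genes PUP3 (837 and 457 against 1415 and 1423) and PRE6 (552 and 743 against 1326 and 1234) with their activator RPN4 (934 and 1095 against 1832 and 3010), the ubiquitin genes RAD6 (249 and 178 against 469 and 524) and HRD3 (3.74 and 28.2 against 53.5 and 31.6), the autophagy genes ATG3 (45.2 and 40.5 against 108 and 114) and ATG11 (44.3 and 20.4 against 89.2 and 103), and the vacuolar protease PRC1 (1209 and 456 against 2148 and 1688). Of 20 autophagy and vacuolar protease genes 0 rose and 0 fell, with a median of 0.80. In sulfur amino acid synthesis, MET16 read 359.8 and 419 against 779 and 1388, CYS3 2788 and 2816 against 5460 and 6444 and the activator MET32 96.4 and 181 against 318 and 388, and of 31 genes 0 rose and 0 fell. The thioredoxin TRX2 read 1320 and 1114 against 2486 and 2456, the thioredoxin reductase TRR2 42.1 and 34.4 against 143 and 57.8 and the glutathione transferase GTT1 572 and 178 against 1038 and 658, and of 17 thioredoxin and glutathione genes 0 rose and 0 fell. The peroxisomal genes PEX2 (800.2 and 370.3 against 1759 and 1257) and ECI1 (46.3 and 47.8 against 105 and 165) were likewise higher and not called. Among phosphate genes, the activator PHO4 read 119 and 90.2 against 375 and 194 and SPL2 577 and 225 against 828 and 1196, both on the opposite side of 0 from PHO3.

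The translation and biosynthesis genes given here were not called, and each had both 14 day arrays below both 0 day arrays. The leucyl and histidyl tRNA synthetase genes CDC60 (444 and 542 against 161 and 196) and HTS1 (1458 and 1401 against 729 and 679) were joined by YHR020W, a prolyl one (1378 and 1437 against 542 and 608). The elongation factor TEF4 read 2104 and 1908 against 694 and 859.8, the initiation factor TIF4631 174 and 135 against 73.5 and 58 and the poly(A)-binding protein PAB1 1008 and 525 against 283 and 356, and of 32 translation factors 0 rose and 0 fell. RPA190 (1711 and 1789 against 589 and 737) and RPA135 (1526 and 1124 against 359 and 659), the large subunits of RNA polymerase I, were lower at 14 days, and so was RPC82, of polymerase III (215 and 224 against 80.4 and 113). The other 5 probe sets of RPA190 past the filter gave log2 fold changes of -2.04, -1.01, -0.91, -0.67 and 0.73. The ribosome assembly genes UTP22 (379.8 and 342 against 141 and 149.9), NOC2 (115 and 205 against 66.3 and 49.8) and MAK5 (169 and 256 against 57 and 106) were lower too, but the other 3 probe sets of UTP22 past the filter gave -0.73, -0.087 and 0.18 on the log2 scale. The amino acid genes HIS6 (308 and 424 against 105 and 115), ARG8 (615 and 485 against 219.5 and 159) and THR4 (1111 and 892 against 261 and 459) were lower, as were the purine genes APT1 (1271 and 1697 against 679 and 468), ADE6 (3027 and 2222 against 1446 and 1091) and ADE4 (284 and 364 against 145 and 141).

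Membrane, wall and vacuole genes not called were mixed. The sterol genes ERG1 (820.4 and 615 against 272 and 373) and ERG7 (266 and 309 against 87.4 and 225) were lower on both 14 day arrays and ERG9 (257 and 73 against 294 and 303) was higher. The fatty acid genes ELO2 (1155 and 1007 against 406 and 376), FAA3 (182 and 119 against 69.8 and 59.8) and SPT23 (291 and 213 against 125 and 131) were lower, and so was CDS1, of phospholipid synthesis (745 and 684 against 324 and 488). In the wall, CHS3, the main chitin synthase, read 772 and 794 against 234 and 276 and the mannoprotein CWP1 748 and 272 against 1633 and 1326. The proton pump genes VMA1 (728 and 603 against 319 and 312), VMA2 (1341 and 1175 against 674 and 736) and VMA6 (610.3 and 504 against 228 and 269.8) were lower as well. For VMA1 another probe set gave a log2 fold change of -0.48, against -1.07 for the one used. The glycerol genes GPD2 (359 and 406 against 197 and 75) and STL1 (46.1 and 59.6 against 118 and 337) lay on opposite sides of their 0 day levels. The zinc transporters ZRT2 (746 and 824 against 413 and 321) and ZRC1 (1633 and 1246 against 502 and 684) were lower, while the copper regulator CUP2 (44.5 and 56.1 against 71.7 and 118) and the permease AGP3 (7.84 and 18.8 against 55.7 and 74.9) were higher. Of the other cell state markers, the meiotic activator NDT80 read 56.3 and 65 against 13.1 and 15.9, SPO16 52 and 84 against 20.4 and 12.8, MFA2 129.5 and 154 against 332 and 414 and STE3 79.2 and 61.7 against 47.3 and 5.74. The histone variant HTZ1 read 351 and 359.5 against 563 and 799, and HEM4, of heme synthesis, 102 and 57.6 against 52.5 and 3.23.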
